A study of Mus musculus with 9 samples.

Results

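The genes of the cytosolic ribosome were examined in follicular B cells whose immunoglobulin heavy chain locus carried different constant regions. The set was defined by name: probe sets with a single gene symbol that reads Rpl or Rps followed by a digit, Rplp followed by a digit, or Rpsa were taken, Rps6k genes, Rps19bp1 and symbols containing -ps were left out, and each gene was read through its brightest probe set, judged over all 9 arrays. This gave 68 of the 22180 genes named on the array, 42 of them named for the large subunit and 26 for the small subunit. Of these, 63 lay above the array median on 3 or more of the 9 arrays and were tested among 12170 genes.

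Follicular B cells are the main naive B cells that circulate through the spleen and lymph nodes. They had been sorted from mice of 3 genotypes aged 6 to 12 weeks, with 3 arrays for each. In Igh ε/ε mice both heavy chain alleles carried the ε constant region of IgE, in Igh γ1/γ1 mice both carried the γ1 constant region of IgG1, and in Igh wild-type mice the locus was unaltered. The genotype labels of all 9 samples also carry the term VJk5, which the labels do not explain, while the design text calls the animals polyclonal. RNA was extracted with Trizol, and 54 to 360 ng of it was amplified with a Nugen kit and hybridised to single-colour arrays. The submitters describe the 3 replicates as independent without saying that each came from its own animal, so the p-values reflect only how far these samples spread.

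Each ribosome holds a single copy of nearly every ribosomal protein, bound to ribosomal RNA, and cells make these proteins in matched amounts. Their mRNAs are among the most abundant in a cell and most begin with a stretch of pyrimidines, the terminal oligopyrimidine or TOP tract, through which mTOR and the RNA-binding protein LARP1 control how well they are translated. In B cells, ribosome production is low at rest and increases with growth after activation, in part through Myc. Translation and protein amounts were not measured here.

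The start regions of 8 members are shown so that their runs of pyrimidines can be compared, and because they include members with small p-values between genotypes (Rps15, Rpl37, Rps25, Rpl5) as well as bright members with no call (Rps18, Rps6, Rpl4, Rpl28). Each window runs 5′ to 3′ from 30 bases before to 20 after the annotated start, as given by RefSeq for the GRCm38.p6 build, and the capitals mark its longest unbroken run of C and T.
Rps15 (chr10:80292401-80292450, plus strand): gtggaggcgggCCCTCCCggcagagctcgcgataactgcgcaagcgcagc
Rpl37 (chr15:5116583-5116632, plus strand): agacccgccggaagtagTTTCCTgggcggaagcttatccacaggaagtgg
Rps25 (chr9:44407684-44407733, plus strand): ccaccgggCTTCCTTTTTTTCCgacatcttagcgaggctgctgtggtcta
Rpl5 (chr5:107900498-107900547, plus strand): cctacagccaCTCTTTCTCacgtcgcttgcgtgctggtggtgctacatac
Rps18 (chr17:33955646-33955695, minus strand): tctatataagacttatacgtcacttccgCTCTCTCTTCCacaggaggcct
Rps6 (chr4:86857348-86857397, minus strand): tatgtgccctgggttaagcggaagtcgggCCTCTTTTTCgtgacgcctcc
Rpl4 (chr9:64173357-64173406, plus strand): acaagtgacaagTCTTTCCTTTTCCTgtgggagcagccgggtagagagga
Rpl28 (chr7:4792935-4792984, plus strand): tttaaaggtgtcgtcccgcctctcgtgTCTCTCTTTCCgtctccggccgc
The longest run was 14 bases in Rps25 and Rpl4, 11 in Rps18 and Rpl28, 10 in Rps6, 9 in Rpl5, 7 in Rps15 and 6 in Rpl37. The runs of Rps15, Rpl37, Rps25, Rpl5 and Rpl4 end before the annotated start. Short runs also occurred in bright members without a call that are not shown, at 4 bases in Rpl41 and 5 in Rpl27. A link of run length to brightness or to the calls was not tested.

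The RefSeq promoter table held 62 start sites for 53 of the 68 genes. A C/T run of at least 8 bases lay within this window in 50.0% of the 62, against 19.9% of 21262 start sites of protein-coding genes and 20.2% of all 32851. The median longest run was 7.5 bases in the ribosomal protein genes and 5 in protein-coding genes. Counted strictly from the annotated start, a run of at least 5 bases was found in 24.2% of the ribosomal protein start sites and 3.86% of the protein-coding ones. The windows show that the run often begins some bases before or after the annotated start. Short motifs were sought on both strands over 250 bases before to 50 after the start. The Ets-type motif CCGGAAG was found in 37.1% of the ribosomal protein promoters, 11.6% of protein-coding promoters and 8.86% of all promoters. The YY1-type motif AANATGG was found in 30.6%, 15.1% and 16.1% of the same sets. The SP1-type motif GGGCGG was found in 50.0%, 46.2% and 35.7%, and TATAAA in 9.68%, 12.6% and 13.6%. These matches describe the letters of the windows and were not related to binding.

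The deposited values are log2 signals of probe sets, and a value belongs to a probe set rather than to a whole gene, so every difference below is a log2 difference. The 34 genes with a mean log2 signal of at least 8 are called bright here, a level chosen after the data had been seen. On each array the median ribosomal protein gene lay between the 98.5th and the 99.0th percentile of all probe sets. The array medians of all probe sets ran from 3.53 to 3.69 with no genotype apart, and 0 pairs of arrays held identical values. The RNA came from a bulk of sorted cells, in which fewer cells of a type and less RNA per cell cannot be told apart.

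The array median of the ribosomal protein genes was 9.25, 9.31 and 9.15 in ε/ε arrays, 9.21, 9.18 and 8.87 in γ1/γ1 arrays and 9.46, 9.21 and 9.29 in wild-type arrays. The lowest of the 9 was the third γ1/γ1 array and the highest the first wild-type array, and the ranges of all 3 genotypes overlapped. The group means were 9.24 ± 0.08, 9.09 ± 0.19 and 9.32 ± 0.12 in ε/ε, γ1/γ1 and wild-type (SD, n = 3 each). For the bright genes alone they were 10.55 ± 0.12, 10.50 ± 0.10 and 10.56 ± 0.10. Over the members, Pearson's r between pairs of arrays was 0.988 to 0.995 within a genotype and 0.982 to 0.994 between genotypes, as a description over genes that are not independent.

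**Figure D1:**
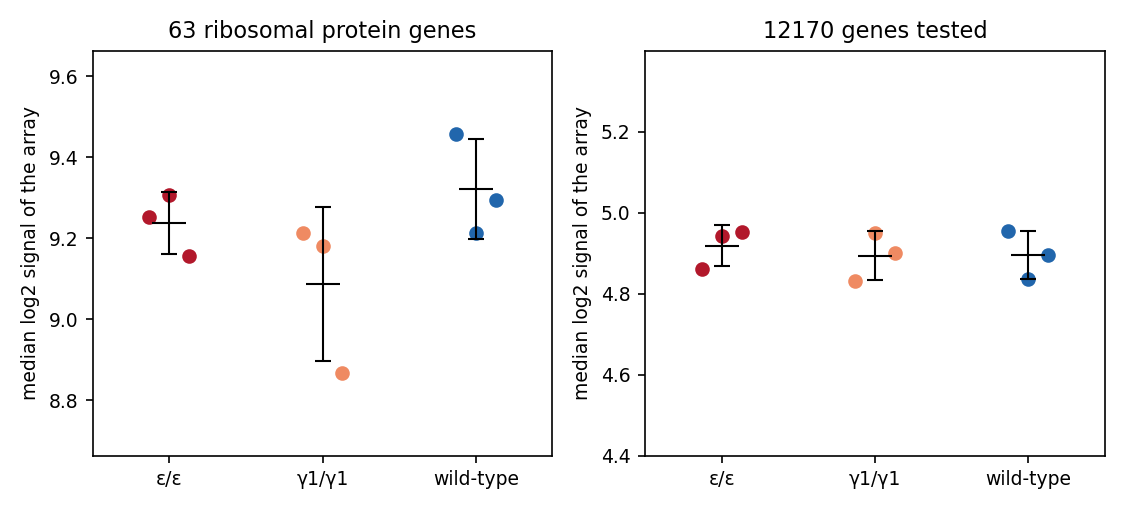
Median log2 signal per array for the 63 ribosomal protein genes tested and for all genes tested, with points for arrays, a long bar for the genotype mean and short bars for the SD (n = 3), on axes of equal span. The medians of the ribosomal protein genes lie between 8.87 and 9.46 and those of all genes tested between 4.83 and 4.96, and the genotypes overlap.

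Between ε/ε and wild-type, 54 of the 63 ribosomal protein genes tested differed by less than 0.5 on the log2 scale, and the 2 that passed the threshold both came from dim probe sets. Of the 63 genes tested, 1 was higher in ε/ε at an adjusted p under 0.05 in limma (Rps15) and 1 was lower (Rpl37). Over all 12170 genes tested, 6.34% were called, 2.33% higher and 4.02% lower, so the members' count was no larger than the background. The median log2 difference was -0.03 over the 63 genes and -0.01 over all genes tested, with 28 of the 63 above 0 and 35 below. An unadjusted p under 0.05 was found for 11 of the 63 and for 24.8% of all genes tested. The median size of the difference, regardless of sign, was 0.19 over the members and 0.24 over all genes tested. The 3 arrays of 1 genotype lay wholly apart from those of the other in 16 members, or 25.4%, against 28.4% of all genes tested.

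The bright genes had 0 calls among 34, with 4 at an unadjusted p under 0.05, a median difference of -0.002 and 17 genes on either side of 0. Among the 488 other genes at least as bright, 17.6% were called in this comparison, their median was -0.21, and 55.1% had arrays that did not overlap, against 29.4% of the bright ribosomal protein genes. The difference between those shares was not tested. In 30 of the 34 bright genes, the 95% interval of the difference lay within 1 log2 unit of 0 on both sides. Over the 63 genes the half-width of the interval ran from 0.26 to 0.95, with a median of 0.40.

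**Figure D2:**
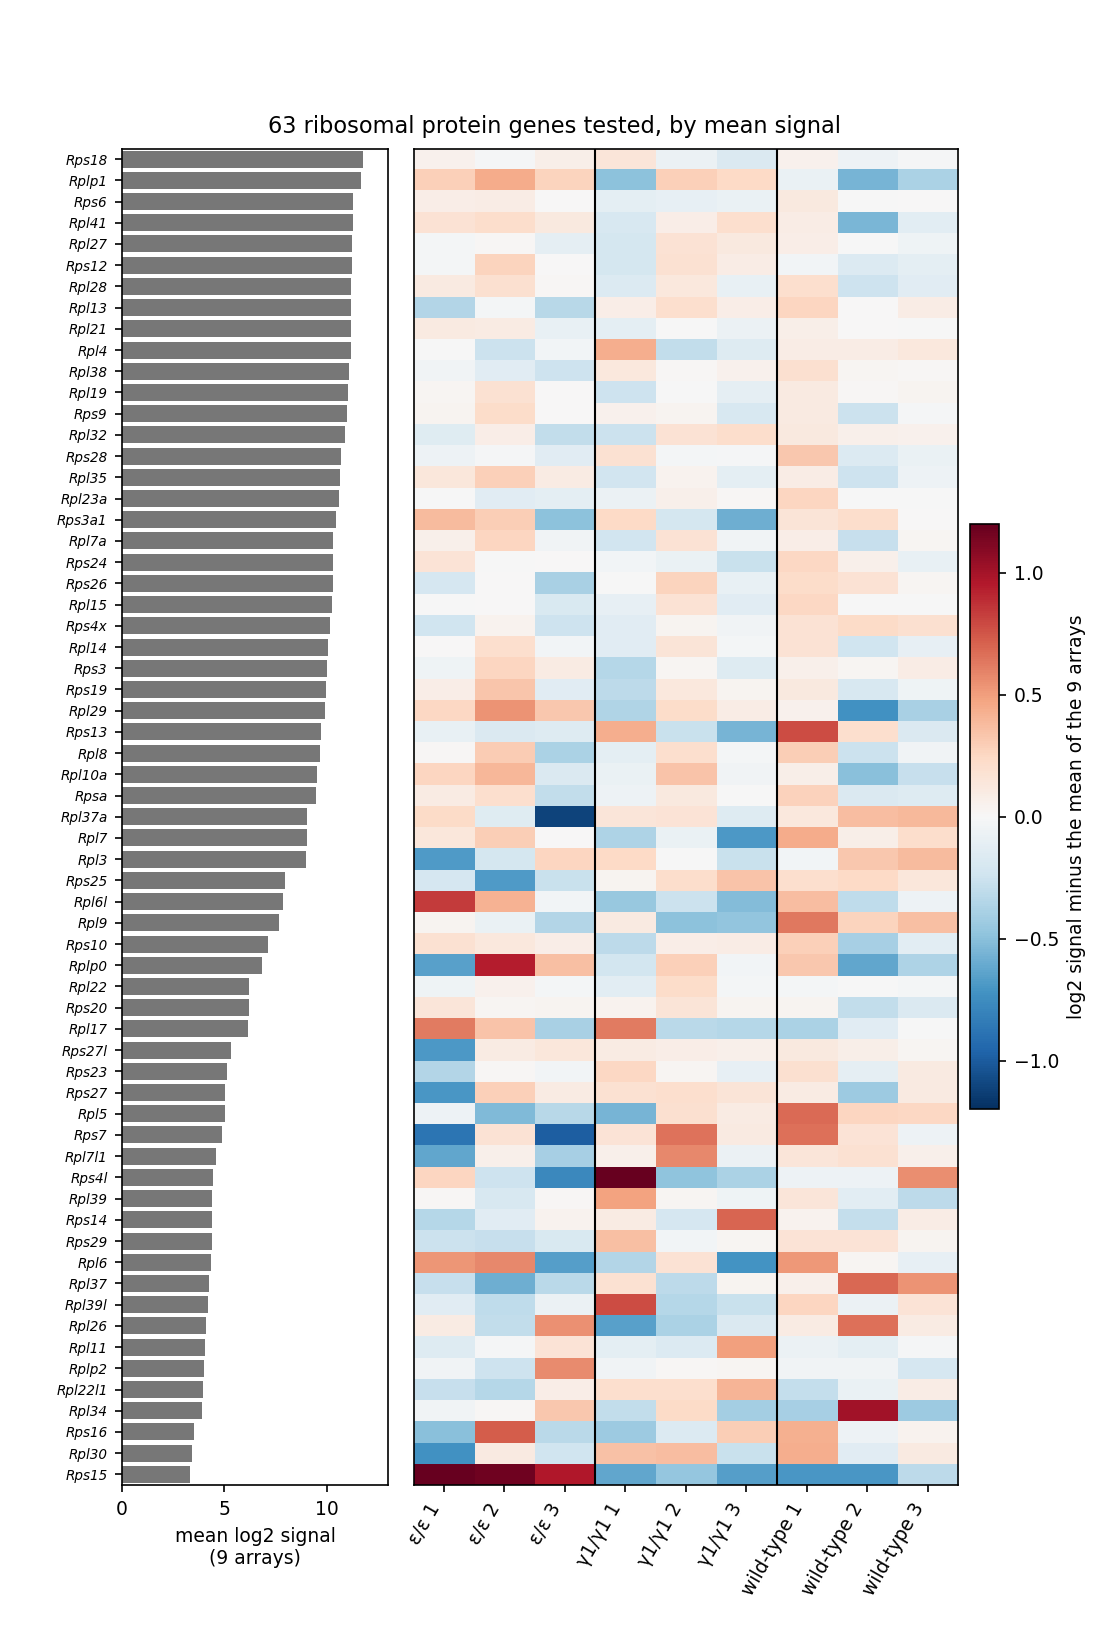
The 63 ribosomal protein genes tested, ordered by their mean log2 signal over the 9 arrays (bars), with each array's log2 signal minus the gene's mean in colour, whose scale saturates at its ends. Most bright genes at the top are pale in every genotype, and Rps15 in the last line is high on the 3 ε/ε arrays.

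Rps15 encodes a small subunit protein of the ribosome's head that lies near the decoding centre and is needed for export of the pre-ribosomal small subunit from the nucleus. Its only probe set of a single symbol read 4.66, 4.50 and 4.30 in ε/ε arrays, 2.71, 2.87 and 2.68 in γ1/γ1 arrays and 2.63, 2.64 and 3.02 in wild-type arrays. All 3 ε/ε arrays lay above all 6 others, and γ1/γ1 and wild-type overlapped. The difference from wild-type was 1.72 (SE 0.16, limma adjusted p = 0.00113), and that from γ1/γ1 was 1.73 (adjusted p = 0.00169). The γ1/γ1 and wild-type values lay below the array median on every array, so no fold is given. Rps15 was also the only member that entered the test through a single genotype, since 3 ε/ε arrays and 0 others lay above their array medians. A gene admitted in that way had to differ between the genotypes, and with the filter set at percentile 75 it was not tested.

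Rpl37, a small zinc-binding protein of the large subunit, read 3.97, 3.65 and 3.91 in ε/ε arrays, 4.42, 3.92 and 4.27 in γ1/γ1 arrays and 4.30, 4.93 and 4.78 in wild-type arrays. The ε/ε and wild-type arrays did not overlap, while γ1/γ1 overlapped both. The ε/ε signal differed from wild-type by -0.83 (SE 0.20, 95% interval -1.27 to -0.38, limma adjusted p = 0.0390), a 1.77-fold lower signal. This call did not hold when certain arrays were left out. The adjusted p was 0.0648 without the first ε/ε array, 0.0920 without the second and 0.0676 without the third. It was 0.0592 without the third γ1/γ1 array, 0.150 without the second wild-type array and 0.126 without the third. It was also missed with no filter on signal (adjusted p = 0.0576), with the replicate number as a block (0.0648) and with the 6 compared arrays alone (0.0696).

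The next 4 genes by p-value missed the threshold in this comparison and are given as values. Rps25, a small subunit protein needed by some viral internal ribosome entry sites, read 7.78, 7.30 and 7.71 in ε/ε arrays, 8.02, 8.19 and 8.32 in γ1/γ1 arrays and 8.19, 8.22 and 8.12 in wild-type arrays. All 3 ε/ε arrays lay below the other 6, with a difference from wild-type of -0.58 (SE 0.16, limma adjusted p = 0.0589) and from γ1/γ1 also of -0.58 (adjusted p = 0.0822). It came below 0.05 against wild-type in 3 of 20 settings, at 0.0424 with the percentile 75 filter, 0.0440 with a trended and robust variance and 0.0322 with array weights.

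Rpl29, a large subunit protein that mice can live without although they grow less, read 10.19, 10.47 and 10.26 in ε/ε arrays, 9.58, 10.16 and 10.03 in γ1/γ1 arrays and 9.99, 9.21 and 9.55 in wild-type arrays. Its ε/ε arrays lay above all others, the difference from wild-type was 0.72 (SE 0.22, limma adjusted p = 0.0770), and the adjusted p was 0.0476 without the first wild-type array. Rplp1, an acidic protein of the stalk that recruits elongation factors, read 11.97, 12.13 and 11.95 in ε/ε arrays, 11.19, 11.98 and 11.92 in γ1/γ1 arrays and 11.60, 11.13 and 11.31 in wild-type arrays. The ε/ε arrays lay above the wild-type arrays and overlapped γ1/γ1, whose first array was low. The difference from wild-type was 0.67 (SE 0.22, limma adjusted p = 0.0910), and the adjusted p was 0.0377 without that γ1/γ1 array. Both genes also have a dimmer probe set. In ε/ε, γ1/γ1 and wild-type it averaged 6.05, 6.49 and 6.11 for Rpl29, which did not repeat the rise, and 7.07, 6.79 and 6.78 for Rplp1.

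Rpl5, which carries ribosomal RNA into the large subunit and binds Mdm2 when free, read 4.96, 4.49 and 4.69 in ε/ε arrays, 4.46, 5.21 and 5.11 in γ1/γ1 arrays and 5.70, 5.27 and 5.27 in wild-type arrays. Wild-type lay above both other genotypes, with a difference of -0.70 for ε/ε (SE 0.22, limma adjusted p = 0.0879) and -0.49 for γ1/γ1 (adjusted p = 0.727). These 2 values share the wild-type arrays. Its partner Rpl11 differed by 0.06 between ε/ε and wild-type (95% interval -0.35 to 0.48), on a dim probe set with means of 4.04 and 3.98.

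**Figure D3:**
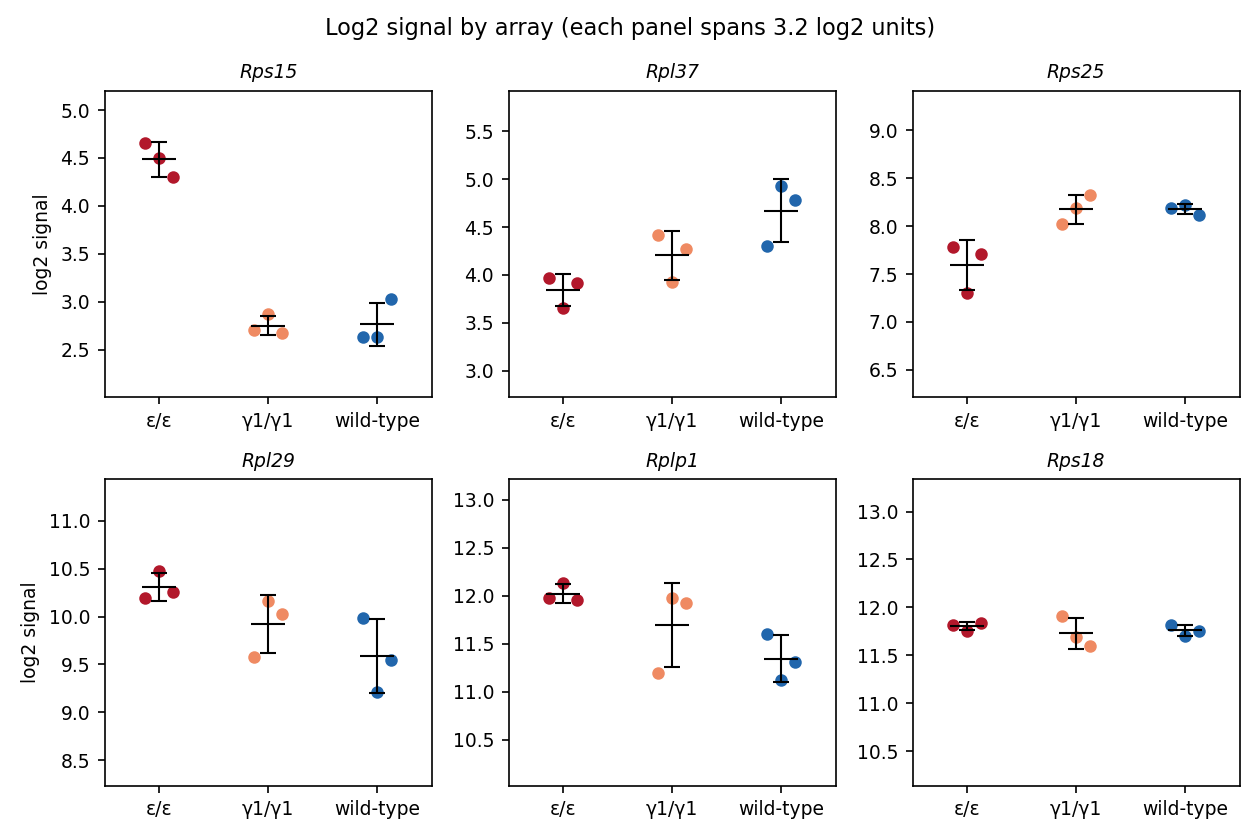
Log2 signal on each array for 6 ribosomal protein genes, with points for arrays, a long bar for the genotype mean and short bars for the SD (n = 3), and axes of equal span. Rps15 is high in the 3 ε/ε arrays, Rpl37 and Rps25 are low there against wild-type, Rpl29 and Rplp1 are high there against wild-type, and Rps18 lies between 11.59 and 11.91 on all 9 arrays.

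Of the members often used as reference genes in quantitative PCR, Rps18 and Rpl19 differed little between ε/ε and wild-type. Rpl13a, also used in this way, has only shared probe sets and is described further below. Rps18, a protein of the small subunit head and the brightest member, read 11.82, 11.75 and 11.84 in ε/ε arrays, 11.91, 11.69 and 11.59 in γ1/γ1 arrays and 11.82, 11.70 and 11.75 in wild-type arrays. The ε/ε minus wild-type difference was 0.04 (95% interval -0.25 to 0.34). Rpl19, of the large subunit, differed by 0.02 (95% interval -0.27 to 0.31), with means of 11.13 in ε/ε arrays, 10.94 in γ1/γ1 arrays and 11.11 in wild-type arrays. Rpl4, which lines the exit tunnel for the nascent chain, had means of 11.08, 11.17 and 11.28 in the same order and differed by -0.20 between ε/ε and wild-type (95% interval -0.62 to 0.22). Its ε/ε arrays lay below the wild-type arrays without overlap, and its γ1/γ1 arrays ran from 10.88 to 11.61. The dimmer probe set of Rpl4, with a mean log2 signal of 10.74, did not repeat this separation. Its ε/ε mean was 10.85 and its wild-type mean 10.78, and the arrays of these genotypes overlapped. Rplp0, the base of the stalk, read 6.18, 7.77 and 7.20 in ε/ε arrays, 6.61, 7.12 and 6.80 in γ1/γ1 arrays and 7.15, 6.22 and 6.46 in wild-type arrays. Its arrays spread widely within each genotype and overlapped, and the interval of the ε/ε minus wild-type difference ran from -0.39 to 1.27.

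Small subunit proteins with further roles also differed little. Rps6, which kinases downstream of mTOR phosphorylate, read 11.38, 11.38 and 11.30 in ε/ε arrays, 11.18, 11.19 and 11.21 in γ1/γ1 arrays and 11.41, 11.29 and 11.30 in wild-type arrays. Its γ1/γ1 arrays lay just below all others, by -0.14 against wild-type (95% interval -0.40 to 0.12, limma adjusted p = 0.847), and ε/ε differed from wild-type by 0.02 (95% interval -0.24 to 0.28). Rps3, also known in DNA repair, had means of 10.10, 9.84 and 10.05 in ε/ε, γ1/γ1 and wild-type. Rps19, which is mutated in Diamond-Blackfan anaemia in humans, had means of 10.04, 9.89 and 9.91. Rpsa, also described as a laminin receptor, had means of 9.45, 9.47 and 9.44. Of these 4 genes 0 passed in any comparison in limma, and 95% intervals of the ε/ε minus wild-type difference were -0.28 to 0.37 for Rps3, -0.25 to 0.52 for Rps19 and -0.38 to 0.41 for Rpsa.

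Among X-linked members, Rps4x read 9.92, 10.21 and 9.91 in ε/ε arrays, 10.03, 10.20 and 10.12 in γ1/γ1 arrays and 10.34, 10.39 and 10.35 in wild-type arrays. All wild-type arrays lay above the other 6, by small margins, with differences of -0.35 for ε/ε (limma adjusted p = 0.146) and -0.25 for γ1/γ1 (adjusted p = 0.760). The first ε/ε and the first γ1/γ1 array had low signals of Xist, the RNA of the inactive X chromosome, at 5.25 and 4.53 against 10.37 to 10.79 on the other 7. With a covariate for these 2 arrays, 4 members in place of 2 passed between ε/ε and wild-type, with Rplp1 higher (0.81, limma adjusted p = 0.0464) and Rpl9 lower beside Rps15 and Rpl37. Over all genes tested, 5.88% were called with the covariate and 6.34% without it, so the 4 members do not stand out from the background. Rpl39, a small X-linked protein at the exit tunnel, had means of 4.36, 4.56 and 4.31 in ε/ε, γ1/γ1 and wild-type.

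Rpl3, a large subunit protein that helps shape the peptidyl transferase centre, read 8.29, 8.76 and 9.23 in ε/ε arrays, 9.21, 8.96 and 8.70 in γ1/γ1 arrays and 8.94, 9.30 and 9.35 in wild-type arrays, with overlapping genotypes and a difference of -0.44 between ε/ε and wild-type (95% interval -0.97 to 0.10). Rpl22, a protein outside the catalytic core whose loss in mice impairs αβ T cell development, had means of 6.20, 6.23 and 6.19 in ε/ε, γ1/γ1 and wild-type, with a difference of 0.01 between ε/ε and wild-type (95% interval -0.28 to 0.31).

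By subunit, 38 large subunit genes held 0 higher and 1 lower call for ε/ε against wild-type, with a median difference of -0.01. The 25 small subunit genes held 1 higher and 0 lower calls, with a median of -0.06. Of the 68 genes, 10 carried the name of a paralog of a ribosomal protein, and the 6 of these that were tested had 0 calls, with a median of -0.25 and 1 above 0. Rpl22l1, the paralog of Rpl22, had means of 3.78, 4.23 and 3.87 in ε/ε, γ1/γ1 and wild-type. Rpl7l1 had means of 4.27, 4.78 and 4.72, Rpl39l, known from testis, 4.02, 4.24 and 4.30, and Rps27l, a target of Trp53, 5.15, 5.38 and 5.38. Rps4l had the widest spread of any member within genotypes (SD 0.65), from 3.65 to 5.62 over the 9 arrays, followed by Rplp0 (0.56) and Rpl34 (0.52). Rpl3l, which belongs to striated muscle, and Rpl10l, which belongs to testis, lay below the array median on all 9 arrays and were not tested. Rpl27a, Rpl32l and Rps23rg1 also missed the signal needed for a test.

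Cells of the γ1/γ1 genotype had no ribosomal protein gene past the threshold against wild-type, in a comparison with few calls of any kind. Of all 12170 genes tested, 0.0411% were called (5 genes), 0.0247% higher and 0.0164% lower. In limma 0 of the 63 members were called, and 4 had an unadjusted p under 0.05, against 6.82% of all genes tested. The median difference was -0.01 over the members and -0.02 over all genes tested, and the members ran from -0.71 to 0.36. The arrays did not overlap in 9 of the 63, or 14.3%, against 12.4% of all genes tested. Among the 34 bright genes 0 were called, against 0.205% of the other bright genes. This comparison and that of ε/ε use the same wild-type arrays.

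The smallest p-values in it belonged to large subunit genes. Rpl9, of the region where elongation factors bind, read 7.68, 7.56 and 7.29 in ε/ε arrays, 7.76, 7.15 and 7.17 in γ1/γ1 arrays and 8.27, 7.92 and 8.01 in wild-type arrays. All wild-type arrays lay above the other 6, with a difference of -0.71 for γ1/γ1 (SE 0.20, limma adjusted p = 0.498) and -0.56 for ε/ε (adjusted p = 0.117). Rpl7 read 9.15, 9.31 and 9.02 in ε/ε arrays, 8.64, 8.93 and 8.33 in γ1/γ1 arrays and 9.46, 9.08 and 9.22 in wild-type arrays. Here the γ1/γ1 arrays lay below all others, by -0.62 against wild-type (SE 0.18, limma adjusted p = 0.521). Rpl26, which also binds Trp53 mRNA, differed by -0.68 on a dim probe set with means of 3.70 in γ1/γ1 and 4.38 in wild-type (adjusted p = 0.649). Rpl37 differed by -0.46 between γ1/γ1 and wild-type (adjusted p = 0.716), and Rpl22l1 by 0.36 (adjusted p = 0.727).

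**Figure D4:**
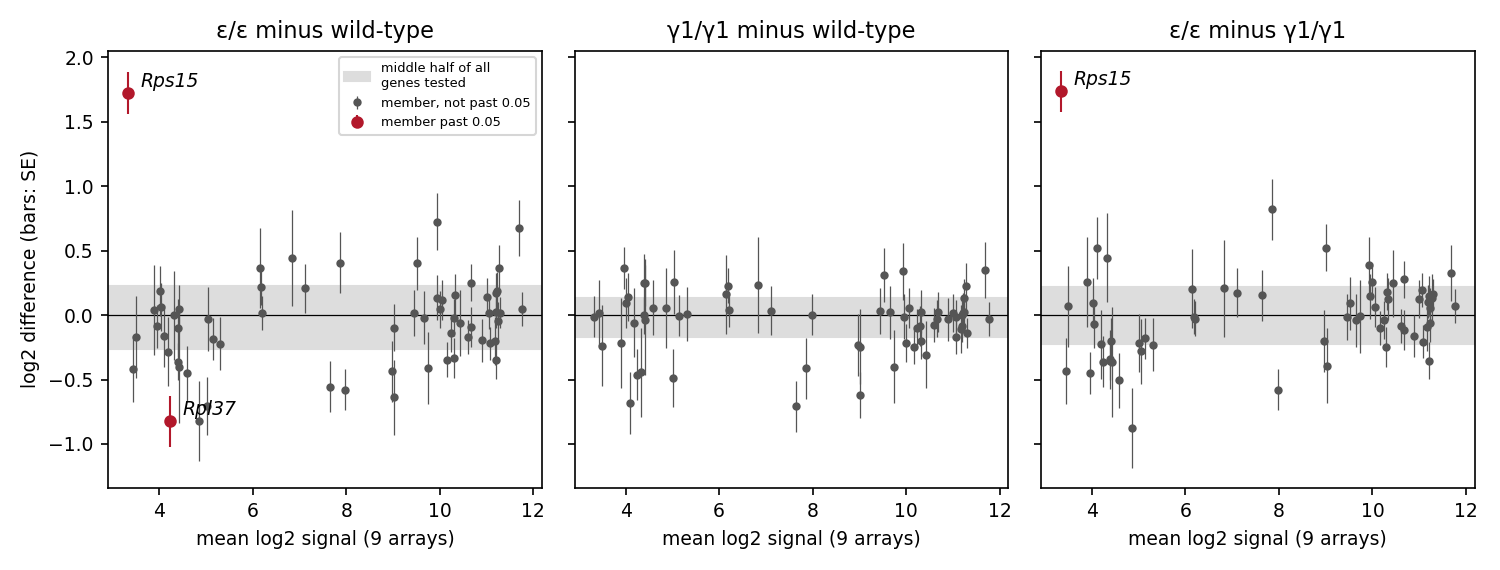
Log2 difference of each of the 63 ribosomal protein genes (bars, SE) against its mean log2 signal over the 9 arrays, for the 3 comparisons, with the interquartile range of all genes tested in grey. Members past an adjusted p of 0.05 in limma are red: Rps15 at 1.72 and Rpl37 at -0.83 in the left panel, none in the middle panel, and Rps15 at 1.73 in the right panel.

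Set directly against each other, ε/ε and γ1/γ1 differed in 1 of the 63 genes, Rps15, which was higher in ε/ε, against 2.66% of all genes tested, 1.02% higher and 1.64% lower. Among the 34 bright genes 0 were called, with 2 at an unadjusted p under 0.05, against 7.99% of the other bright genes. Over all 63, 9 had an unadjusted p under 0.05, against 19.9% of all genes tested. The median difference was -0.01 over the members and -0.00003 over all genes tested, and 13 members, or 20.6%, had arrays that did not overlap, against 21.1% of all genes tested. Rpl6l, a paralog of Rpl6, read 8.70, 8.28 and 7.83 in ε/ε and 7.41, 7.60 and 7.34 in γ1/γ1, without overlap (difference 0.82, SE 0.24, limma adjusted p = 0.0952). Rpl7 was 0.52 apart with no overlap (adjusted p = 0.147), and Rpl22l1 -0.45, again with no overlap (adjusted p = 0.165). Rps7, which also binds Mdm2, read 3.98, 5.03 and 3.87 in ε/ε arrays, 5.03, 5.51 and 4.97 in γ1/γ1 arrays and 5.52, 5.03 and 4.80 in wild-type arrays. Its second ε/ε array lay among the γ1/γ1 and wild-type arrays, the ε/ε minus γ1/γ1 difference was -0.87 (SE 0.31, limma adjusted p = 0.158), and without that array it was -1.24 (adjusted p = 0.0360). The ε/ε minus wild-type difference was -0.82 (limma adjusted p = 0.139), and -1.19 without the same array (adjusted p = 0.0289).

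How bright a member appeared depended on its probe set. Ribosomal protein genes have many near-identical processed pseudogenes, and some probe sets list several symbols. In 3 members, separate probe sets of the single symbol held identical values. The level of any single member is therefore uncertain. The 68 genes had 109 probe sets of a single member symbol, and in 17 of the 25 genes with several the brightest and dimmest were more than 3 log2 units apart. For Rps18 the brightest averaged 11.77 and the dimmest 3.82, and for Rpl19 they averaged 11.06 and 4.11. For 6 genes the probe set used was under 8 while a probe set shared with another symbol was at least 8. These were Rpl26 (4.10 and 10.24), Rpl27a (2.76 and 10.87), Rpl30 (3.44 and 11.32), Rpl34 (3.90 and 11.23), Rps16 (3.50 and 10.89) and Rps27 (5.04 and 11.69), each given as the mean log2 signal of its own and then of the shared probe set. The dimmest members tested were Rps15, Rpl30 and Rps16, and the brightest Rps18, Rplp1 and Rps6. A further 14 ribosomal protein symbols, Rpl10, Rpl12, Rpl13a, Rpl36a, Rpl36al and Rps2 among them, appeared only on shared probe sets and are not members, and Rps27a had no probe set of its own symbol alone.

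When all probe sets that name a member or a shared ribosomal protein symbol were tested in a fit of 22340 probe sets, the share called of all probe sets was 6.04% between ε/ε and wild-type, 0.13% between γ1/γ1 and wild-type and 3.83% between ε/ε and γ1/γ1. In that fit limma called Rps15 as the only 1 of the 63 probe sets that stand for a member, and Rpl37 was not called. Of 38 other probe sets of members, 1 was lower, a second probe set of Rpl9. Its means were 3.25 in ε/ε arrays, 4.05 in γ1/γ1 arrays and 4.19 in wild-type arrays (difference from wild-type -0.94, limma adjusted p = 0.0132). It read 3.19, 3.19 and 3.36 in ε/ε arrays, below their array medians of 3.63, 3.53 and 3.65. This probe set entered the test through γ1/γ1 and wild-type arrays alone, so it had to be lower in ε/ε. It is also part of the mean of probe sets used for Rpl9 as an alternative. Of 55 probe sets shared with other symbols, 2 were higher and 0 lower, and both list Rpl13a. The median ε/ε minus wild-type difference of these 55 was nonetheless -0.25, against -0.03 for the 63 and -0.004 for the 38. For the 55 it was -0.14 between ε/ε and γ1/γ1 and -0.04 between γ1/γ1 and wild-type. Whether the shared probe sets differ as a group was not tested.

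Rpl13a is a large subunit gene whose introns hold small nucleolar RNAs of the box C/D type, which guide methylation of ribosomal RNA. The probe set that lists Snord32a and Rpl13a read 10.42, 10.09 and 10.18 in ε/ε arrays, 8.86, 6.87 and 6.92 in γ1/γ1 arrays and 5.96, 5.76 and 7.17 in wild-type arrays. All ε/ε arrays lay above the other 6, and the first γ1/γ1 array stood above the rest of its group. The difference from wild-type was 3.94 (SE 0.56, limma adjusted p = 0.0101), and from γ1/γ1 it was 2.68 (adjusted p = 0.0417). The probe set that lists Snord33, Mir5121 and Rpl13a averaged 6.12 ± 0.14 in ε/ε arrays, 5.23 ± 0.39 in γ1/γ1 arrays and 4.98 ± 0.27 in wild-type arrays (SD, n = 3 each), which put ε/ε 1.15 above wild-type (adjusted p = 0.0262). The probe sets that list Snord34 or Flt3l beside Rpl13a were 0.81 and 0.79 apart and missed the threshold (adjusted p = 0.323 and 0.104). Which of the listed RNAs these probe sets read was not tested.

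**Figure D5:**
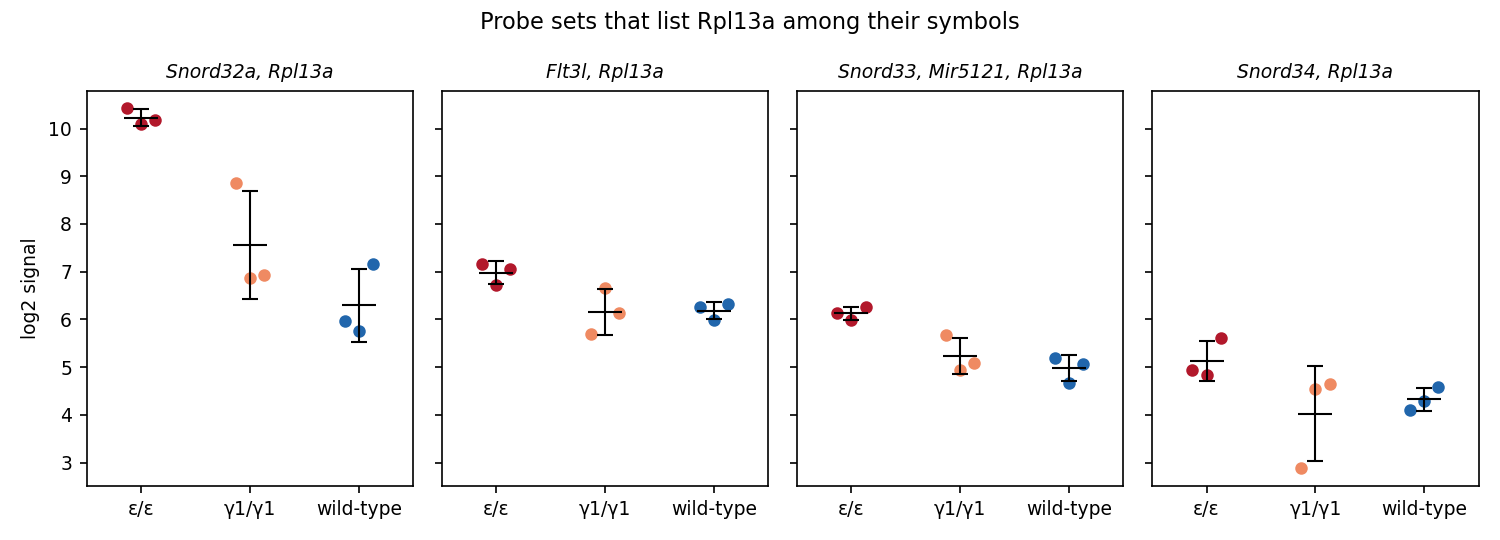
Log2 signal on each array for the 4 probe sets that list Rpl13a beside another symbol, with points for arrays, a long bar for the genotype mean and short bars for the SD (n = 3). The Snord32a probe set averages 10.23 in ε/ε arrays, 7.55 in γ1/γ1 arrays and 6.30 in wild-type arrays, and the other 3 differ by 1.15 or less between ε/ε and wild-type.

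Genes that work with the ribosomal proteins were followed in 4 lists, whose counts between ε/ε and wild-type stand against 6.34% called over all genes tested. Among 25 tested genes of other TOP mRNAs, elongation and initiation factors and ribosome partners, 0 were higher and 1 lower for ε/ε against wild-type. This was Nap1l1, a nucleosome assembly protein, with means of 8.32 in ε/ε and 8.96 in wild-type (difference -0.64, SE 0.13, limma adjusted p = 0.0220). The call was lost without any 1 of the wild-type arrays or the third ε/ε array (adjusted p = 0.0513 to 0.0904). The list's median difference from wild-type was -0.09 in ε/ε and -0.15 in γ1/γ1, and that of ε/ε from γ1/γ1 was 0.08. Among 32 ribosome biogenesis genes 0 passed in any comparison. The export adaptor Nmd3 had means of 8.36 in ε/ε and 9.39 in wild-type (difference -1.03, adjusted p = 0.0517), and the nucleolar protein Noc4l had 5.18 and 4.60 (0.58, adjusted p = 0.0679). Among 15 genes of RNA polymerase I, which transcribes ribosomal RNA, 0 passed. Between ε/ε and wild-type, its factor Taf1b differed by -0.68 (adjusted p = 0.0699) and its subunit Twistnb by -0.67 (adjusted p = 0.0767).

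Among 23 genes that control growth and the translation of ribosomal protein mRNAs, 1 rose and 1 fell in ε/ε against wild-type, beside the same 6.34% over all genes tested. Myc, the transcription factor that drives ribosome production, averaged 8.07 ± 0.02 in ε/ε arrays, 7.62 ± 0.32 in γ1/γ1 arrays and 7.31 ± 0.19 in wild-type arrays (SD, n = 3 each). The ε/ε level was 0.76 above wild-type (SE 0.18, limma adjusted p = 0.0332), a call lost whenever any ε/ε or wild-type array was left out (adjusted p = 0.0627 to 0.133). Rps6ka3, a kinase of the MAP kinase pathway, averaged 6.16 in ε/ε and 7.01 in wild-type (difference -0.85, limma adjusted p = 0.0406), and its call held in 9 of 20 settings. The list's median difference from wild-type was 0.27 in ε/ε and 0.01 in γ1/γ1, and that of ε/ε from γ1/γ1 was 0.31. In the other 2 comparisons 0 genes of these 4 lists passed.

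Markers of the sorted population and of other cells were read beside these results. Their counts in ε/ε against wild-type stand beside 2.33% higher and 4.02% lower over all genes tested. Of 7 tested B cell genes 0 were higher and 1 lower in ε/ε against wild-type. This was Fcmr, the Fc receptor for IgM, with means of 7.59 in ε/ε arrays, 9.24 in γ1/γ1 arrays and 9.40 in wild-type arrays (ε/ε minus wild-type -1.81, limma adjusted p = 0.00397). Among the B cell genes without a call, Ms4a1 and Cd79b lay between 9.66 and 9.96 and between 10.25 and 10.76 over all arrays. Cd79a was less steady, with means of 10.11 in ε/ε arrays, 9.30 in γ1/γ1 arrays and 9.04 in wild-type arrays. In ε/ε and wild-type, Pax5 averaged 8.56 and 8.19, Cd22 9.27 and 9.03, and Blk 6.74 and 7.34. Of 7 follicular B cell genes 0 were higher and 2 lower. These were Zfp318, which is needed for IgD, at -1.98 (limma adjusted p = 0.00150) and the complement regulator Cd55 at -0.95 (0.0136). Without a call, the means in ε/ε and wild-type were 9.76 and 9.22 for Fcer2a, 9.15 and 8.93 for Cr2 and 8.13 and 7.44 for Cxcr5. They were 7.37 and 7.42 for Ccr7 and 5.94 and 6.18 for Klf2, so the list did not move in 1 direction. Of 7 tested genes on the marginal zone B cell list 5 were higher in ε/ε and 0 lower against wild-type. The 4 with the largest differences were the chemokine receptor Ackr3 at 2.28 (limma adjusted p = 0.00127), Myof at 1.68 (0.00378), Ptpn14 at 1.24 (0.00936) and Asb2 at 1.11 (0.0147). Cd1d1 and Cd9 were not called, with means of 4.85 and 4.25 in ε/ε against 5.01 and 4.18 in wild-type. Against γ1/γ1 the same lists held 1 lower B cell gene (Fcmr), 2 lower follicular genes (Zfp318 and Cd55) and 3 higher marginal zone genes (Ackr3, Asb2 and Dtx1). In that comparison 1.02% of all genes tested were called higher and 1.64% lower. The summed level of 10 macrophage genes, on the log2 scale, was 10.91, 8.41 and 7.63 in ε/ε, 7.09 to 7.48 in γ1/γ1 and 7.00 to 7.07 in wild-type, and 0 of its 7 tested genes passed. None of the T cell genes on the list reached the signal needed for a test. Among 6 tested genes of proliferating cells 0 passed. The summed level of 8 plasma cell genes ran from 8.91 to 9.13 on ε/ε arrays. This lay above the ranges of γ1/γ1 (8.45 to 8.74) and wild-type (8.35 to 8.76). The sum of 6 transitional B cell genes was highest on the wild-type arrays, the lowest of which read 10.95. It ran from 10.23 to 10.68 for ε/ε and from 10.44 to 10.72 for γ1/γ1. Of the 5 tested genes on each of these lists 0 passed. The part of these cell type differences in the values of Rps15, Rpl37 and Myc was not tested. Without the first ε/ε array, whose macrophage sum was the highest, Rps15 still passed and Rpl37 did not. Neither outcome can decide that question. Rps15 entered the test through ε/ε arrays alone, and Rpl37 lost its call whichever ε/ε array was left out.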

How the data were processed

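The authors deposited log2 signals of 41345 probe sets on 9 arrays. Their range showed the log2 scale, and the submitters' processing notes name R 3.3.1. The sources used here do not give the background correction, normalization or probe summary. Scanner files were not used here, and 0 columns belonged to other samples. The platform annotation gave 23521 probe sets 1 symbol and 1814 several. Probe sets with several symbols gave no gene a name.

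A linear model with 1 mean per genotype over all 9 arrays was fitted in limma 3.58.1 (R 4.3.3) with eBayes, with Benjamini-Hochberg adjustment over 12170 genes and a threshold of 0.05. Every adjusted p comes from limma, and intervals are 95% intervals from its moderated errors. The scripts were tested on simulated data. The members, lists and rules were chosen with earlier results of these data known. The brightness level of 8, the base window and the run lengths were set after the data had been seen.

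Genes named were those past the threshold or the 6 smallest p-values in each comparison, a fixed list of reference genes, paralogs and genes of known further roles, and the 3 brightest, dimmest and most variable members. From each list of other ribosome and growth genes, up to 4 that passed or else the 2 smallest p-values were named, and from the marker lists up to 4 that passed. The markers named without a call, Rpl28, Rpl41, Rpl27 and the members counted by shared probe sets were chosen after their values were seen. Alternatives were quantile normalization, median centring, no filter or a percentile 75 filter, the mean of probe sets, trended and robust variance, array weights, the replicate block, a covariate for low Xist, the 6 arrays compared alone and each array left out. The number of arrays limits the precision. Python 3.11.15 and matplotlib 3.10.9 drew the figures. Promoter sequences were matched by gene identifier.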

Additional observations from a re-analysis of the deposited data

Results flagged for a closer look

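The signal of Rps15 differed from wild-type in ε/ε but not in γ1/γ1, and the direct test of ε/ε against γ1/γ1 gave 1.73 on the log2 scale (limma adjusted p = 0.00169), with 3 of 3 ε/ε arrays above every γ1/γ1 array. Rps15 was admitted to the test through its ε/ε arrays alone, so it had to differ between the genotypes.

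A pair of probe sets outside the set of single-symbol probe sets showed signal above the wild-type level. The one that lists Snord32a and Rpl13a stood 3.94 above wild-type in ε/ε, and the one that lists Snord33, Mir5121 and Rpl13a stood 1.15 above it, each in 3 of 3 arrays. No single-array test of outliers was made, since groups of 3 are too small for it.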

How the results depend on the processing

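Across 20 settings, 0 ribosomal protein genes passed for γ1/γ1 against wild-type in any of them. For ε/ε against wild-type the count of 2 became 1 with no filter, with the percentile 75 filter (Rps25, with 14.8% of genes called), with the replicate number as a block and with only the 6 arrays compared, 3 with the mean of probe sets (Rpl9, adjusted p = 0.0149), with a trended and robust variance or with array weights (Rps25 in both), and 4 with a covariate for the arrays of low Xist. Over all genes tested, 2.72% were called with no filter, 5.49% with the block and 3.48% with only the 6 arrays. The share was 6.74% with the mean of probe sets, 7.21% with the trended and robust variance, 7.66% with array weights and 5.88% with the covariate. Leaving out 1 array gave 1 to 3 members, against 1.53% to 6.48% of all genes tested. The count was 1 without ε/ε replicate 1 or 3, γ1/γ1 replicate 3, or wild-type replicate 2 or 3. For ε/ε against γ1/γ1 the count of 1 became 0 with the percentile 75 filter, which drops Rps15, and ranged from 1 to 2 when 1 array was left out, with 2 without the second ε/ε array. Of all genes tested, 6.5% were called with that filter and 1% to 2.71% with 1 array left out. Rps15 passed in 19 of 20 settings in both comparisons, most of which keep the filter it passed through ε/ε arrays alone (with no filter, limma adjusted p = 0.00176 against wild-type and 0.00257 against γ1/γ1), and Rpl37 in 10 of 20. Of the values of single named genes, 1826 kept their side of the threshold, 9 lost it and 10 gained it, and 0 called values changed sign. The causes of the other changes were not tested.

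The median difference of the members ranged from -0.08 to 0.01 for ε/ε against wild-type, -0.08 to 0.04 for γ1/γ1 against wild-type and -0.06 to 0.05 for ε/ε against γ1/γ1 when 1 array was left out, so its sign is not settled. Quantile normalization gave 0.05 for ε/ε against wild-type, with 0.05 over all genes tested. The replicate numbers showed no clear pairing of the samples. Deviations of arrays with the same number correlated at -0.09 to 0.16 over 9 pairs, against -0.07 to 0.08 over 18 pairs of other numbers. The highest value, 0.16, was that of the second ε/ε and second γ1/γ1 arrays. The replicate block moved the calls for ε/ε against wild-type to 1 member, left 1 for ε/ε against γ1/γ1 and 0 for γ1/γ1. Dim probe sets limit what can be said of 29 tested members under a mean log2 signal of 8.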
